A study of Mus musculus with 30 samples.

Results

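The comparison described here is that of retinal pigment epithelium (RPE) from Mertk -/-V2 mice with RPE from C57BL/6 (B6 WT) mice, by mRNA sequencing at P25. It is defined by genotype and tissue and takes 9 of the 30 libraries of the series, 3 from Mertk -/-V2 and 6 from B6 WT mice. The study asked whether traits ascribed to the loss of Mertk belong to that gene alone, and so set 3 independently made Mertk knockout lines against B6 WT mice in RPE (18 libraries) and in bone marrow-derived macrophages (BMDMs, 12 libraries).

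All RPE libraries came from untreated mice labelled as strain C57BL/6J, and the labels call the tissue direct ex vivo. Mertk -/-V2 mice carried a floxed Mertk allele that had been made in C57BL/6NJ embryos. It was excised in the germline by a tamoxifen-inducible Rosa26 ERT2 Cre, which removed an exon of the kinase domain, and the Cre was then bred out by crossing to C57BL/6J. The genome of this line was therefore a mixture of C57BL/6J and C57BL/6NJ, whereas the B6 WT mice had been purchased as C57BL/6 and bred in the same facility. The other lines, used here only for side-by-side values, were Mertk -/-V1, which keeps a segment of another strain around Mertk on chromosome 2, and Mertk -/-V3, made by CRISPR/Cas9 in C57BL/6NJ eggs. RNA was taken from the RPE side of the opened eye, so other ocular cells could be present, and the sex of the mice is not in the labels. Each library is labelled as a biological replicate, with no statement of litter, day or pooling.

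The RPE is a single pigmented cell layer beneath the photoreceptors that recycles visual pigment and engulfs the shed tips of photoreceptor outer segments, a task for which MERTK and its ligands GAS6 and PROS1 are known. Epithelia are also known for their response to type III interferons (interferon lambda), which bind a receptor of IFNLR1 and IL10RB, while type I interferons such as interferon beta bind IFNAR1 and IFNAR2. Both receptors act through STAT2 and IRF9, among others, on a shared set of antiviral genes, many of which carry an interferon-stimulated response element in their promoter.

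Mertk -/-V2 RPE differed from B6 WT RPE at few genes, and those that were higher were almost all of the interferon response. Genes were called differentially expressed (DEGs) where the adjusted p was below 0.05 and the change, up or down, reached 2.38-fold on the log2(value + 1) scale, by limma with Benjamini-Hochberg adjustment over 18832 genes. There were 11. Of these, 9 were higher in Mertk -/-V2, which is 0.0478% of the genes tested. They were the type III interferons Ifnl2 and Ifnl3, the apolipoproteins L Apol9a and Apol9b, Ifi27l2a, Ifi44, Isg15, Trim30a and Ifit1. The other 2 genes, Gm47283 and Gm15247, were lower in Mertk -/-V2, which is 0.0106% of the genes tested, and both lie on the sex chromosomes. Without the fold threshold 13 genes passed, the additions being the antiviral gene Rtp4 and Zkscan3, which encodes a zinc finger protein. At an unadjusted p under 0.05 there were 1031 genes, 538 higher (2.86% of the genes tested) and 493 lower. Of all 18832 genes tested, 10208 had a positive fold change, and the median log2 fold change of all genes was 0.02.

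The promoters of 4 of these genes are shown because they carry a pair of GAAA blocks with 2 bases of any kind between them, or the same on the other strand (TTTC, 2 bases, TTTC), the core of the interferon-stimulated response element. Each is 300 bases of RefSeq (GRCm38.p6), 250 before the annotated start and 50 from it on, written 5′ to 3′ along the strand of the gene. Capitals mark the matches, which were sought on both strands and could overlap. The windows are chr4:156200769-156201068 (minus strand) for Isg15, chr19:34640639-34640938 (plus strand) for Ifit1, chr15:77411031-77411330 (minus strand) for Apol9a and chr7:104465144-104465443 (minus strand) for Trim30a.
Isg15: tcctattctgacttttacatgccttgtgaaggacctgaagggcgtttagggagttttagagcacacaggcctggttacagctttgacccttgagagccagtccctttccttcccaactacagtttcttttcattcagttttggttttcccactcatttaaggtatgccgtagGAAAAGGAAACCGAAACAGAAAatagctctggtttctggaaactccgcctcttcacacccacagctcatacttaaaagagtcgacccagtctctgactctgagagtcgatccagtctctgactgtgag
Ifit1: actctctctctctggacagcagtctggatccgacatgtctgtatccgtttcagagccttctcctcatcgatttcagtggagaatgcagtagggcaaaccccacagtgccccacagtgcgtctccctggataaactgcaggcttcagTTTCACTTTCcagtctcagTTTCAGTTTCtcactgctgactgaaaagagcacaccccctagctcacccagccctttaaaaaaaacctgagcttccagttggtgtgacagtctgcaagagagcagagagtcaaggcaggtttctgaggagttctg
Apol9a: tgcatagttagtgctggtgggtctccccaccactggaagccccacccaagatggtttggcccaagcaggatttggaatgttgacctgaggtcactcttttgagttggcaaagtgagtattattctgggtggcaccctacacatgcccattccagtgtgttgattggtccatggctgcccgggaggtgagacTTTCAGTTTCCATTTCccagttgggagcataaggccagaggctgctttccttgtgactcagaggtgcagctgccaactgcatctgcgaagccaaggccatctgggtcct
Trim30a: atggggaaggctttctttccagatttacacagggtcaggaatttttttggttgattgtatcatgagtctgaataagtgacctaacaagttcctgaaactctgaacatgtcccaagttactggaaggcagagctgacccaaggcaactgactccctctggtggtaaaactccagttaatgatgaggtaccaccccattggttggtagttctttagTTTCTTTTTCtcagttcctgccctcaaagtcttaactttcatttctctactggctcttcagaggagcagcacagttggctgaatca

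Isg15 held 3 overlapping matches in an unbroken run, Ifit1 held 2 apart from each other, Apol9a held 2 that overlap, and Trim30a held 1. The window of Apol9b (chr15:77728822-77729121, plus strand) shares a run of 278 bases with that of Apol9a, both matches included. The windows of Ifi44, Ifnl2 and Ifnl3 held no match, and that of Ifnb1 held none either. For Ifnl2 and Ifnl3 the bases before the annotated start contain what reads as a start codon and coding sequence. Their windows may thus lie inside the gene, so the lack of a match there does not describe their promoters. Ifi27l2a, Gm47283 and Gm15247 are not in the table. Matches stood in 5 of the 8 higher DEGs with a window, against 1079 of 27025 genes (3.99%) and 1131 of 32851 windows (3.44%) in all of RefSeq. Among antiviral interferon effectors 22 of 41 genes with a window (53.7%) held the letters, and among guanylate-binding proteins and immunity-related GTPases 10 of 11 (90.9%) did. Only 1 of 20 macrophage and microglia markers (5.0%) and 0 of 16 RPE identity markers held them. Within the antiviral list they stood in 11 of 18 members that were above all B6 WT libraries and in 11 of 23 of the others, a difference that was not tested. A match describes the sequence and is not a measured binding site.

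Of the interferon ligand genes, Ifnl2, Ifnl3 and Ifnb1 were read in every Mertk -/-V2 RPE library and in no B6 WT library. Values here and below are read counts that the authors divided by a size factor for each library, called normalized counts. Ifnl2 (chromosome 7, 28508836 to 28510455, minus strand) stood at 95.1, 29.7 and 69.7 normalized counts in Mertk -/-V2 and at 0 in all 6 B6 WT libraries. Ifnl3 (chromosome 7, 28522836 to 28524322, plus strand) stood at 92.7, 50.1 and 49.0 in Mertk -/-V2 and again at 0 in all 6. Ifnb1 (chromosome 4, 88522025 to 88522774, minus strand), which encodes interferon beta, stood at 14.5, 5.94 and 20.6 in Mertk -/-V2 and likewise at 0 in every B6 WT library. All 3 Mertk -/-V2 libraries were therefore above all 6 B6 WT libraries for each ligand, and Mertk -/-V2 replicate 2 was lowest for Ifnl2 and Ifnb1 but not for Ifnl3.

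In reads, the Mertk -/-V2 libraries held 118, 35 and 81 of Ifnl2, 115, 59 and 57 of Ifnl3, and 18, 7 and 24 of Ifnb1. Against a floor of 3 reads in each B6 WT library, a mean of 3.9 normalized counts, Ifnl2 was at least 16.6-fold, Ifnl3 at least 16.4-fold and Ifnb1 at least 3.51-fold higher. These floors cover counting error only. The Mertk -/-V2 libraries were deeper, at 29522487 to 33169749 reads on genes against 14137666 to 30196674 in B6 WT. Over the whole table of 55573 genes, only 5 had no read in any B6 WT library and at least 3 reads in every Mertk -/-V2 library, namely these 3 ligands, Gm2619 and Gm38661, and 0 genes showed the reverse. The reverse was the stricter rule, with reads asked of each of 6 mostly shallower libraries and none allowed in 3 deeper ones. The 2 counts therefore cannot be set against each other. Gm47283 and Gm15247 missed the reverse rule through 2.42 and 0.86 normalized counts in a Mertk -/-V2 library. Gm2619 and Gm38661 were named after their values were seen.

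Ifnl2 and Ifnl3 are near-identical copies, alike at 565 of 582 aligned transcript bases (97.1%), and 11.1% of the 100-base stretches of Ifnl2 and 13.9% of those of Ifnl3 also occur in the other gene, so the split of reads between them is uncertain. Both also overlap Samd4b on the minus strand, and the strand setting of the counting is not given in the sources used here. On the log2(value + 1) scale the fitted differences were 5.89 for Ifnl2 (adjusted p = 6.92e-04, limma) and 5.96 for Ifnl3 (adjusted p = 0.00203, limma), sizes that depend on the pseudocount because the B6 WT values are 0. With edgeR on the recovered reads neither was called, at adjusted p = 0.22 and 0.437, whereas DESeq2 fitted to Mertk -/-V2 and B6 WT alone called both, at adjusted p = 4.66e-13 and 6.9e-15. Fitted to all 4 genotypes, DESeq2 gave Ifnl2 an adjusted p of 0.549 and gave Ifnl3 none. Ifnl2 and Ifnl3 passed the filter on low values, a mean of at least 10 over the RPE libraries, only through Mertk -/-V2. Their means were 64.8 and 63.9 there, 2.3 and 3.88 in Mertk -/-V1, and 0 in B6 WT and Mertk -/-V3. Their place among the genes tested thus depended on the difference itself. In the limma fit without that filter their adjusted p was 3.63e-04 and 0.00136. Ifnb1 fell below the filter, and in the same unfiltered fit its difference was 3.73 (adjusted p = 2.94e-05 over 38048 genes).

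These ligands were rare in the other lines. Ifnl2 had a read in 2, Ifnl3 in 1 and Ifnb1 in 2 of the 15 other RPE libraries. Mertk -/-V1 replicate 1 held most of these, with 16 reads of Ifnl2, 29 of Ifnl3 and 1 of Ifnb1, and none of the 3 genes had a read in any of the 12 BMDM libraries. Of the other interferon genes, Ifna1, Ifna2, Ifna4, Ifna5 and Ifne had no read in either group, and Ifng reached at most 0.806 normalized counts. Ifnk had reads in B6 WT replicates 3, 5 and 6, at 0.972, 2.62 and 3.14 normalized counts, and in 1 Mertk -/-V2 library, at 0.806. Ifnz stood at 1.87 in B6 WT replicate 1 and at 0.806, 0.849 and 1.72 in Mertk -/-V2, so both genes were below 3 reads in every one of these libraries. No interferon receptor gene was a DEG. Ifnar1 changed by 0.04, Ifnar2 by 0.08, Il10rb by 0.19, Ifngr2 by -0.23, Ifngr1 by -0.40 and Ifnlr1 by -0.51 on the log2 scale, with adjusted p from limma of 0.954 or more. Ifnlr1 ranged from 118 to 379 in B6 WT and stood at 122, 138 and 194 in Mertk -/-V2, within the B6 WT range.

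**Figure D1:**
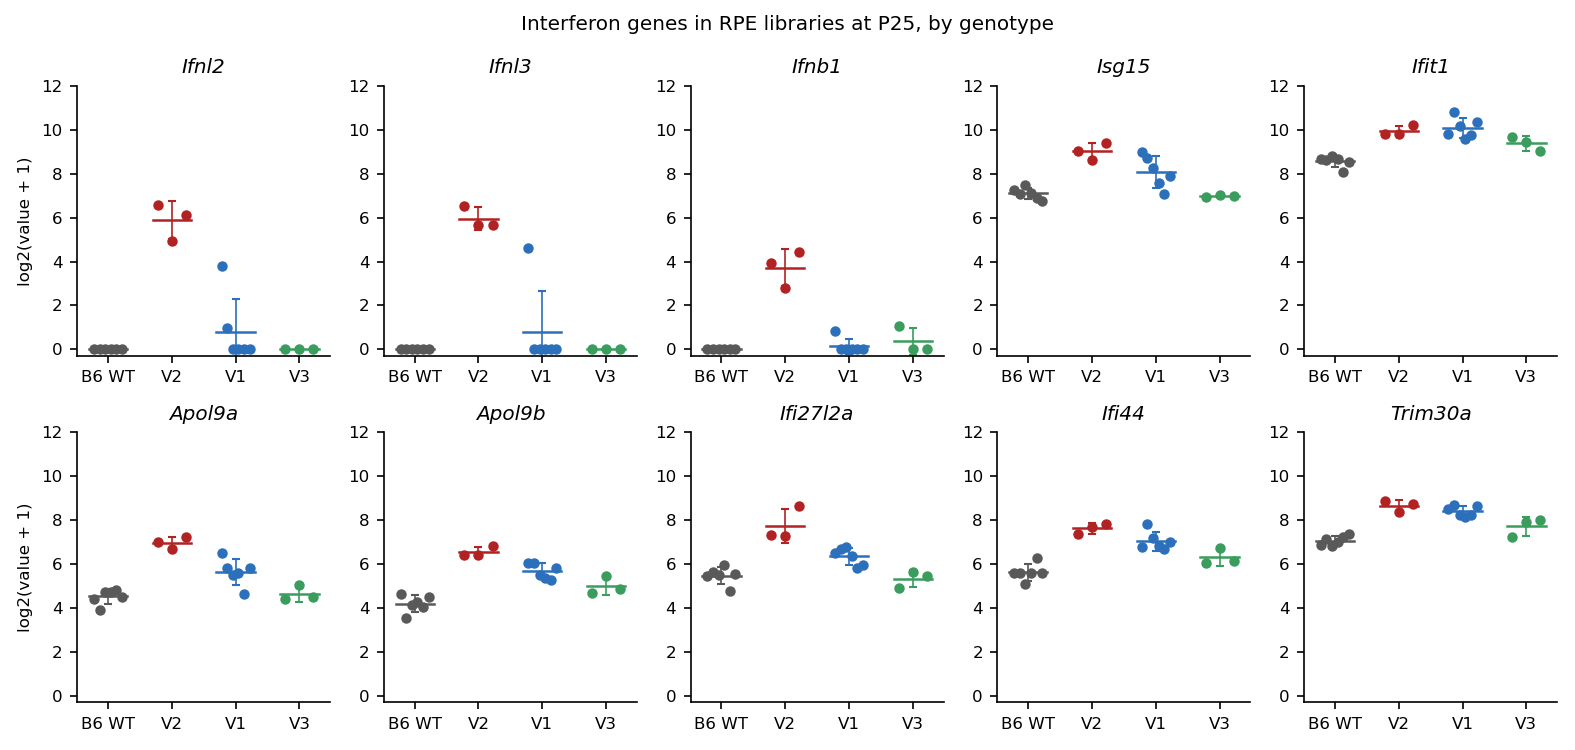
Normalized counts of 10 interferon genes in the RPE libraries, as log2(value + 1), with the genotypes along the x axis. Each point is a library, the horizontal line is the group mean and the bar is the SD. Ifnl2, Ifnl3 and Ifnb1 are at 0 in all 6 B6 WT libraries, and in every panel the 3 Mertk -/-V2 (V2) libraries lie above all B6 WT libraries.

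Antiviral effector genes followed. ISG15, a ubiquitin-like protein attached to target proteins during the interferon response, was encoded by a gene (chromosome 4, 156199424 to 156200818) that stood at 154, 136, 177, 139, 117 and 107 normalized counts in B6 WT and at 531, 398 and 668 in Mertk -/-V2. The groups did not overlap, with means of 138 ± 25.3 (SD, n = 6) and 532 ± 135 (SD, n = 3). The log2 fold change of Isg15 was 1.93 ± 0.32 (SE), or 3.80-fold (adjusted p = 0.026, limma). Ifit1 (chromosome 19, 34640871 to 34650009), whose product binds foreign RNA, stood at 408, 392, 443, 409, 274 and 369 in B6 WT and at 895, 894 and 1181 in Mertk -/-V2. Again no library overlapped, and the log2 fold change of Ifit1 was 1.37 ± 0.23 (SE; adjusted p = 0.0298, limma). Both calls were fragile. Isg15 and Ifit1 passed without B6 WT replicate 3 and lost the call without any of the other 8 libraries in turn, where adjusted p from limma was 0.0567 to 0.318 for Isg15 and 0.059 to 0.365 for Ifit1. With Y-linked genes as a covariate both also lost the call, at adjusted p = 0.118 and 0.156 from limma, as did Isg15 with quantile normalization (0.122) and Ifit1 against B6 WT replicates 1 to 3 alone (0.103).

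Ifi44 (chromosome 3, 151730922 to 151749960), an interferon-induced gene, stood at 47.6, 46.9, 33.0, 48.1, 77.3 and 47.1 normalized counts in B6 WT and at 163, 204 and 228 in Mertk -/-V2. Its log2 fold change was 2.00 ± 0.27 (SE; adjusted p = 0.00302, limma). Ifi27l2a (chromosome 12, 103442167 to 103443680), which encodes a small interferon-inducible membrane protein, stood at 42.9, 49.2, 44.7, 61.1, 26.2 and 45.5 in B6 WT and at 158, 157 and 397 in Mertk -/-V2. Every Mertk -/-V2 library was above every B6 WT library for both genes, and Mertk -/-V2 replicate 3 was the highest for both. The log2 fold change of Ifi27l2a was 2.27 ± 0.32 (SE; adjusted p = 0.00496, limma). Without Mertk -/-V2 replicate 3 the fold changes were 1.89 for Ifi44 and 1.83 for Ifi27l2a, with adjusted p = 0.051 and 0.0535 from limma. Fitted to only the libraries compared, Ifi27l2a also lost the call (adjusted p = 0.0772, limma).

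Apol9a (chromosome 15, 77403789 to 77411135) and Apol9b (chromosome 15, 77729039 to 77736382) are interferon-inducible members of the apolipoprotein L family. Apol9a stood at 20.5, 14.1, 25.3, 25.9, 27.5 and 22 normalized counts in B6 WT and at 128, 101 and 150 in Mertk -/-V2, a log2 fold change of 2.45 ± 0.32 (SE) or 5.45-fold (adjusted p = 0.00203, limma). Apol9b stood at 24.2, 10.6, 16.5, 18.5, 15.7 and 22 in B6 WT and at 83.8, 84.0 and 112 in Mertk -/-V2, a log2 fold change of 2.35 ± 0.27 (SE) or 5.08-fold (adjusted p = 7.28e-04, limma). The lowest Mertk -/-V2 library was at least 3 times the highest B6 WT library for each. Their transcripts are alike at 1458 of 1526 aligned bases (95.5%), and 36.7% of the 100-base stretches of Apol9b occur in Apol9a, so their separate values are uncertain. Trim30a (chromosome 7, 104409025 to 104465193), a regulator of inflammatory signalling, stood at 115, 141, 112, 126, 149 and 163 in B6 WT and at 467, 328 and 430 in Mertk -/-V2. Its groups were far apart, and the log2 fold change was 1.59 ± 0.19 (SE) or 3.02-fold (adjusted p = 9.51e-04, limma). The calls of Apol9a, Apol9b and Trim30a held under each of the 22 alternative settings tried, 9 of which left out a library.

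Most members of the wider antiviral list were higher as well, mostly short of the thresholds, while the summed level of the list stayed within the B6 WT range. Of 51 antiviral interferon effectors tested, 7 were DEGs, all higher, 45 had a positive fold change and 24 had an unadjusted p under 0.05, all higher. Among all genes tested 0.0478% were higher DEGs, 10208 of 18832 were positive and 2.86% were higher at that unadjusted p. The median log2 fold change of the 51 was 0.51 beside 0.02 for all genes. The summed level of the list was 41650 to 59314 normalized counts in Mertk -/-V2, inside the 29514 to 68091 of B6 WT. In 25 of the 51, every Mertk -/-V2 library stood above every B6 WT library, where 3.72% of all genes tested did so. DESeq2 called 12 of the 51, and limma called 3 without Mertk -/-V2 replicate 3. Of the 41 lists described, 39 had 0 DEGs by limma and by edgeR, whereas DESeq2 called a member in 2 of those 39 lists and, fitted to Mertk -/-V2 and B6 WT alone, in 8. Slfn4, a Schlafen family gene, stood at 32.6, 25.8, 38.9, 24.1, 24.9 and 23.5 normalized counts in B6 WT and at 255, 150 and 214 in Mertk -/-V2. That difference of 2.81 ± 0.59 (SE) did not pass (adjusted p = 0.198, limma), and among the other RPE libraries in the shared fit Slfn4 spanned 15.8 to 277 in Mertk -/-V1. Mx1, an antiviral GTPase, ranged from 15.7 to 31.5 in B6 WT against 74.9, 81.5 and 92.0 (log2 fold change 1.80, adjusted p = 0.203, limma). Cmpk2 at 1.28, the antiviral enzyme Rsad2 (viperin) at 1.65 and the nucleic acid sensor Zbp1 at 1.61 were likewise above all B6 WT libraries without passing. Rtp4 stood at 201, 206, 203, 207, 156 and 232 in B6 WT and at 414, 442 and 532 in Mertk -/-V2, a log2 fold change of 1.2 ± 0.2 (SE; adjusted p = 0.0252, limma) that fell under the fold threshold. Usp18, which removes ISG15 from proteins, was 0.53 higher and Ifit3 0.63 higher on the log2 scale, both again above every B6 WT library and neither called.

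Oligoadenylate synthetases, which sense double-stranded RNA, gave 0 DEGs of 9 tested by limma and by edgeR, 2 by DESeq2 and 4 by DESeq2 fitted to Mertk -/-V2 and B6 WT alone. At an unadjusted p under 0.05 there were 4 by limma, all higher, where 2.86% of all genes tested were higher. Oas1a stood at 33.6, 46.9, 64.1, 70.3, 86.5 and 58.1 in B6 WT and at 162, 175 and 300 in Mertk -/-V2 (log2 fold change 1.81, adjusted p = 0.199, limma). Oas3, Oas2 and Oas1g followed at 1.52, 1.28 and 1.2, and every Mertk -/-V2 library was above every B6 WT library for these 4 members. The summed level of the whole list was 3646 to 5837 in Mertk -/-V2, inside the 2127 to 6100 of B6 WT.

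Guanylate-binding proteins and immunity-related GTPases, which attack the membranes around intracellular pathogens, were positive in 16 of 16 members tested, with a median log2 fold change of 0.58. By limma and edgeR 0 were DEGs and by either DESeq2 fit 1 was, 9 had an unadjusted p under 0.05, all higher, and 11 stood above all B6 WT libraries. For all genes tested the shares were 10208 of 18832 positive, 2.86% higher at that unadjusted p and 3.72% above all B6 WT libraries. Gm12250, an immunity-related GTPase gene, stood at 7.46, 10.6, 4.86, 7.40, 13.1 and 9.42 in B6 WT and at 57.2, 39.0 and 43.0 in Mertk -/-V2, without overlap (log2 fold change 2.31 ± 0.43 SE, adjusted p = 0.085, limma). Gbp10, Gbp4 and Iigp1 differed by 1.07, 1.01 and 0.92, while Gbp3, Igtp and Irgm1 differed by 0.62, 0.58 and 0.50. The members of the list were thus narrow in their spread below Gm12250, and their lowest value was 0.14. The summed level of this list was 6505 to 7415 in Mertk -/-V2 and 4289 to 5583 in B6 WT, without overlap.

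Interferon regulators and nucleic acid sensors were mixed. Of 28 tested, 0 were DEGs, 16 were positive, 9 had an unadjusted p under 0.05, all higher, and the median log2 fold change was 0.13. The positive share was near that of all genes tested (10208 of 18832), of which 2.86% were higher at that unadjusted p. The higher members included Irf9 at 0.50 and Irf7 at 0.75, which carry or amplify the interferon signal, as well as the RNA sensor Tlr7 at 1.00 and Dhx58 at 0.69. Nlrc5, an activator of MHC class I genes, was 0.79 and Socs3, a brake on cytokine signalling, 0.64. MHC class I genes gave 0 DEGs of 21 with a median of 0.16, MHC class II genes 0 of 9 with a median that rounds to 0, and chemokines 0 of 12 with a median of 0.61, by limma, with 3, 1 and 1 members at an unadjusted p under 0.05. Cxcl9 and Cxcl10, chemokines named for their induction by interferon, were 1.89 and 1.41 higher from low counts, at most 28.4 and 24.1 in any Mertk -/-V2 library.

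**Figure D2:**
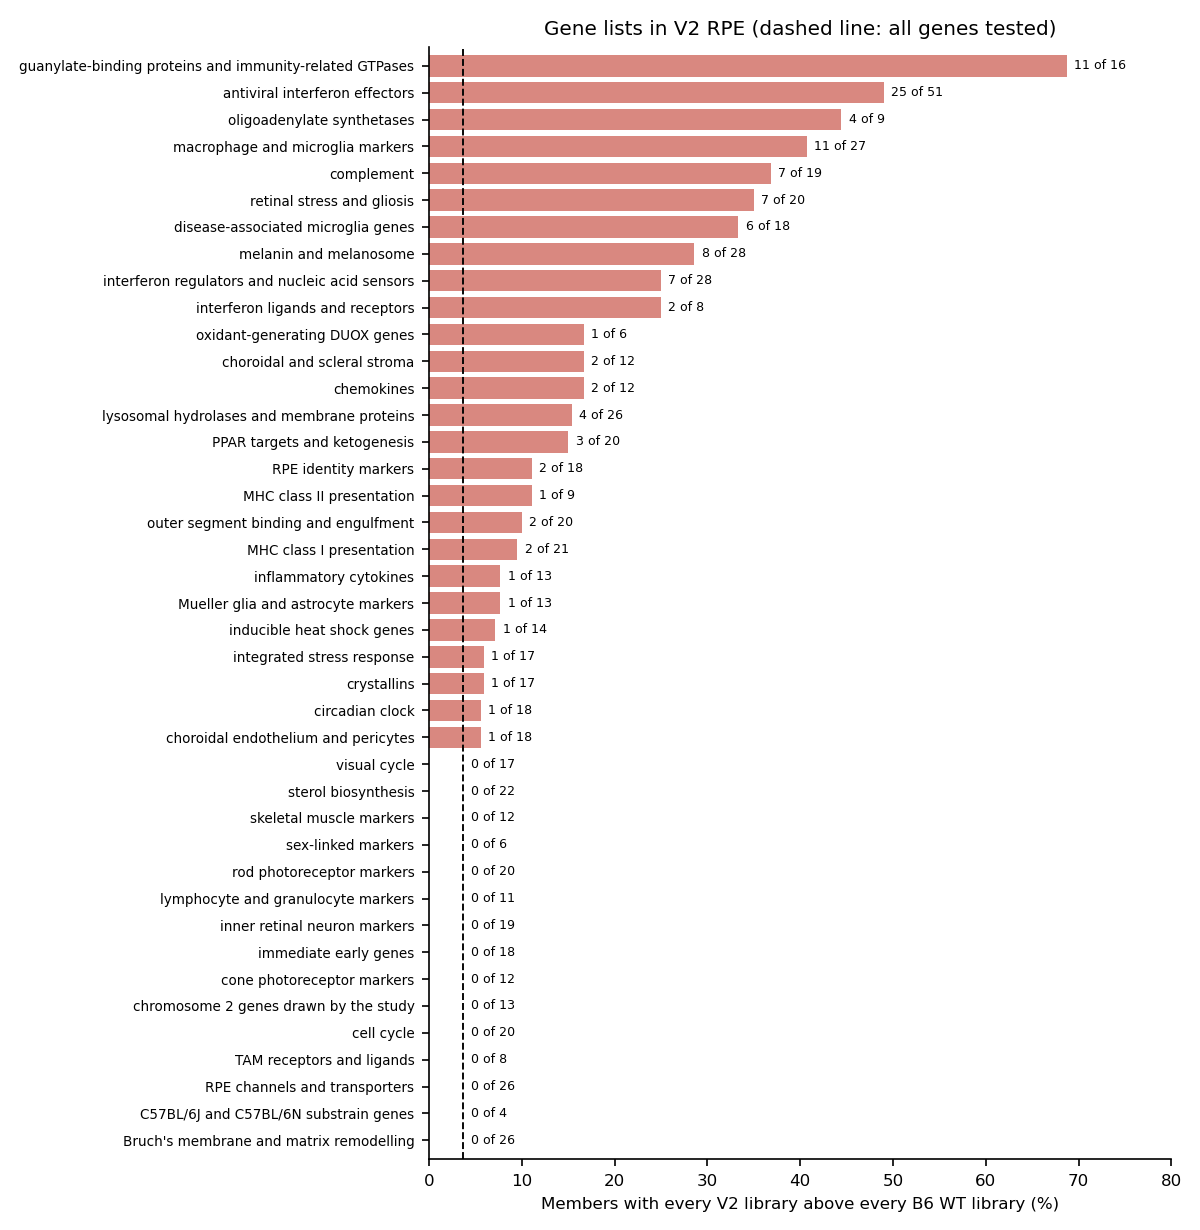
Share of the tested members of each gene list (%, x axis) in which every Mertk -/-V2 library stood above every B6 WT library, with the count beside each bar. The dashed line is the share among all genes tested, 3.72%. The lists of guanylate-binding proteins and GTPases (11 of 16) and of antiviral effectors (25 of 51) have the longest bars, and 15 lists have no such member.

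Markers of macrophages and microglia, which are not RPE cells, were mostly higher in Mertk -/-V2 as well. Of 27 tested, 26 were positive, 15 had an unadjusted p under 0.05, all higher, 11 stood above all B6 WT libraries, and the median log2 fold change was 0.61, yet 0 were DEGs by limma or edgeR. Among all genes tested 10208 of 18832 were positive, 2.86% were higher at that unadjusted p and 3.72% stood above all B6 WT libraries. The summed level of the markers was 12838 to 14874 normalized counts in Mertk -/-V2 and 9993 to 15579 in B6 WT, overlapping ranges, and no marker was at 0 throughout. Trem2, a phagocytic receptor of microglia, stood at 30.8, 36.3, 35.0, 35.2, 31.5 and 33.0 in B6 WT and at 68.5, 62.8 and 76.6 in Mertk -/-V2. The libraries were fully separated, but the difference of 1.02 ± 0.29 (SE) did not pass (adjusted p = 0.568, limma). Fcer1g, Tyrobp and Fcgr3, immune receptor chains, were 0.69, 0.90 and 0.99, and Ly86, Aif1 and the mannose receptor Mrc1 were 1.00, 0.98 and 0.91. The part of these cells in the interferon result was not tested, and in bulk RNA more cells of a type cannot be told apart from more RNA per cell. Lymphocyte and granulocyte markers gave no such pattern, with a median of -0.16, 0 of 11 above all B6 WT libraries and sums of 200 to 270 against 225 to 330.

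Complement genes gave 0 DEGs of 19 by limma, with 14 positive, 8 at an unadjusted p under 0.05, all higher, and a median of 0.38. Among all genes tested 10208 of 18832 were positive and 2.86% were higher at that unadjusted p. C4b, which is cleaved early in the classical pathway, stood at 854, 777, 1073, 1375, 1369 and 1290 in B6 WT and at 1961, 3007 and 2666 in Mertk -/-V2, without overlap (log2 fold change 1.19 ± 0.33 SE, adjusted p = 0.568, limma). C4b was 1735 to 7084 in Mertk -/-V1 and 4142 to 6165 in Mertk -/-V3, where every library was above those of Mertk -/-V2. C1qa, C1qb and C1qc, the recognition subunits that macrophages are known to make, differed by 0.67, 0.60 and 0.75. The complement inhibitors Serping1 and Cd59a were 0.56 and 0.72 higher. Cd59a stood at 624, 645, 763, 762, 667 and 845 in B6 WT and at 1183, 1130 and 1227 in Mertk -/-V2, where Mertk -/-V3 had 1127 to 1367 and Mertk -/-V1 410 to 688.

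Retinal stress and gliosis genes gave 0 DEGs of 20 by limma and a median of 0.51, with 5 higher and 1 lower at an unadjusted p under 0.05 and 7 above all B6 WT libraries. Edn2, an endothelin known from stressed photoreceptors, ranged from 3.93 to 33.6 in B6 WT against 58.0, 42.4 and 71.4, and the growth factor Fgf2 from 203 to 308 against 391, 421 and 503. Neither passed, at log2 fold changes of 1.78 ± 1.15 and 0.82 ± 0.64 (SE). Cebpd, a transcription factor of the acute phase, was 1.05 higher at 315, 286 and 337 against 119 to 208.

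Mertk itself was not lower. It stood at 3291, 3924, 3381, 3169, 2638 and 2811 normalized counts in B6 WT and at 5311, 3811 and 3565 in Mertk -/-V2, with a log2 fold change of 0.39 ± 0.25 (SE; adjusted p = 0.954, limma). The ranges overlapped, and replicate 1 alone exceeded all B6 WT libraries. In this allele 1 kinase-domain exon is removed, and a count over the whole gene does not check that deletion. At the protein level the study detected no MERTK in tissues of this line, RPE among them, by immunoblot. Mertk RNA was not lower in Mertk -/-V2 BMDMs either, at 3532 to 3589 against 2414 to 2881 in B6 WT BMDMs (log2 fold change 0.43, adjusted p = 0.00129, limma). In Mertk -/-V1 and Mertk -/-V3 RPE the gene was 1.46 and 2.01 lower on the log2 scale, with values of 919 to 1717 and 444 to 1106, and between Mertk -/-V2 and Mertk -/-V3 it differed by 2.40 (adjusted p = 0.00113, limma). Its relatives and ligands were close to B6 WT, with Tyro3 at -0.15, Axl at 0.16, Gas6 at 0.10 and Pros1 at 0.28, none called. Genes for outer segment binding and engulfment gave 0 DEGs of 20 by limma, 1 at an unadjusted p under 0.05, and a median of -0.03. The scavenger receptor Cd36 among them was 0.73 and above every B6 WT library.

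As a sum, markers of RPE identity stayed within the spread of the B6 WT libraries. Their sum of 754464 to 983867 normalized counts in Mertk -/-V2 lay within the 614375 to 1005842 of B6 WT, none of them was at 0, and the tissue label was thereby checked. By limma there were 0 DEGs among 18 RPE identity markers (median 0.10), 17 visual cycle genes (0.11), 26 RPE channels and transporters (0.00) and 28 melanin and melanosome genes (0.11), with 0, 0, 1 and 0 members at an unadjusted p under 0.05. Of the 18 RPE identity markers 2 were above every B6 WT library, and of the 28 melanin and melanosome genes 8 were, by small amounts. Of all genes tested 3.72% were. The melanosome proteins Pmel and Mlana were 0.48 and 0.55, and the pigment enzymes Tyrp1 and Dct both 0.34. Dct stood at 117464, 120875 and 118686 against a B6 WT range of 78180 to 109058. Lysosomal genes had a median of 0.05 over 26 and PPAR targets 0.14 over 20, with 0 DEGs and 1 member each at an unadjusted p under 0.05.

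Sterol biosynthesis genes were mostly lower. Of 22 genes tested 1 was positive, 4 had an unadjusted p under 0.05, all lower, the median was -0.24 and 0 were DEGs by limma. In the whole set of 18832 genes 10208 were positive and 493 were lower at that unadjusted p. Fdps, which makes farnesyl diphosphate, stood at 179, 132, 193, 178, 138 and 100 in B6 WT and at 56.4, 78.1 and 93.8 in Mertk -/-V2, all below B6 WT, as were 1.94% of all genes tested (log2 fold change -1.0 ± 0.24 SE, adjusted p = 0.355, limma). Lss, which closes the sterol ring, was -0.49. With B6 WT replicates 1 to 3 as the reference the list median was -0.52 and with replicates 4 to 6 it was 0.05, so its direction depended on the set.

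The 2 genes that fell lie at the end of the sex chromosomes. Gm47283 (chromosome Y, 90784738 to 90816464, plus strand; listed as protein coding) stood at 336, 312, 309, 268, 426 and 579 in B6 WT and at 2.42, 0 and 0 in Mertk -/-V2. The log2 fold change was -7.90 ± 0.49 (SE; adjusted p = 3.15e-07, limma), the smallest p of the comparison. Gm15247 (chromosome X, 169985801 to 169986939, minus strand), listed as an antisense RNA within Mid1, stood at 22.4, 12.9, 19.4, 20.4, 23.6 and 28.3 in B6 WT and at 0, 0 and 0.86 in Mertk -/-V2, a log2 fold change of -4.14 ± 0.45 (SE; adjusted p = 6.92e-04, limma). Both genes were thus near 0 in every Mertk -/-V2 library. Without strand, reads of Gm15247 and of Mid1 cannot be told apart, and 30.7% of the 100-base stretches of Gm47283 also occur in Gm21887 on chromosome X, where Mertk -/-V2 had 0 in all libraries and B6 WT 0 to 152 (log2 fold change -5.04, adjusted p = 0.71, limma).

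Both gene entries were near 0 in Mertk -/-V2 BMDMs as well. The BMDM libraries of both genotypes had 0 of the Y-linked genes Ddx3y, Eif2s3y and Kdm5d and 2920 to 5677 normalized counts of Xist, which is expressed from the inactive X chromosome of females, whereas these RPE libraries had 2072 to 3009 of Ddx3y and 12.9 to 34.5 of Xist. Reads assigned to Gm47283 in B6 WT BMDMs therefore came from libraries without Y-linked marker RNA, and which locus gave them was not tested. In BMDMs Gm47283 stood at 280, 202 and 370 in B6 WT and at 1.21, 3.03 and 3.80 in Mertk -/-V2 (log2 fold change -6.31, adjusted p = 9.02e-07, limma), and Gm15247 at 27.1, 24.5 and 28.3 against 0, 0 and 0.95 (-4.46, adjusted p = 6.32e-05). In Mertk -/-V3 RPE Gm47283 kept 80.3 to 273 and Gm15247 0 to 4.99. Neighbouring copies differed as well. Mid1-ps1, a pseudogene on chromosome Y that shares 91.3% of its stretches with other genes, ranged from 1.31 to 25.9 in B6 WT against 60.4, 66.2 and 62.8, and 82.3 to 127 in Mertk -/-V3. Its counts are uncertain, and its difference of 2.85 did not pass (adjusted p = 0.355, limma). Of the Y-linked markers Eif2s3y was -0.51, at 963, 730 and 733 against 1041 to 1330, while Ddx3y at -0.07, Kdm5d at -0.06 and Uty at 0.03 overlapped with B6 WT.

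**Figure D3:**
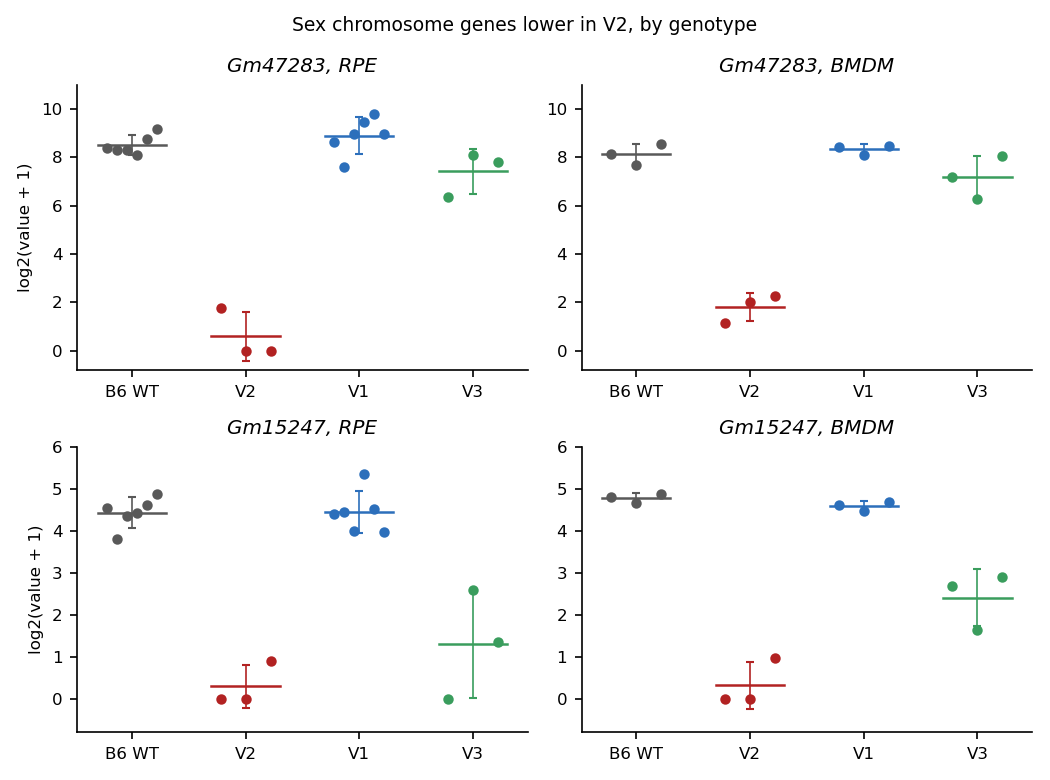
Normalized counts of Gm47283 and Gm15247 in RPE (left) and BMDM (right) libraries, as log2(value + 1), by genotype. Points are libraries, lines are group means and bars are SD. The Mertk -/-V2 (V2) libraries are near 0 in both tissues, and Mertk -/-V3 (V3) is also low for Gm15247.

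Zkscan3, which encodes a zinc finger transcription factor, was the other gene with an adjusted p under 0.05. It stood at 2029, 2007, 2053, 1974, 1971 and 1906 normalized counts in B6 WT and at 3813, 3892 and 3137 in Mertk -/-V2. The B6 WT libraries were nearly equal and all 3 Mertk -/-V2 libraries were far above them, for a log2 fold change of 0.85 ± 0.12 (SE; adjusted p = 0.00583, limma). Without Mertk -/-V2 replicate 1 or 2 the adjusted p was 0.0955 or 0.0967, at log2 fold changes of 0.81 and 0.80. Mertk -/-V3 RPE had 1910 to 2669.

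The interferon DEGs were higher against either set of B6 WT libraries. Mertk -/-V2 has 3 libraries and B6 WT has 6, numbered 1 to 3 and 4 to 6, and these sets differed from each other at 49 genes by the DEG thresholds. With replicates 1 to 3 as the reference there were 11 higher (0.0584% of genes tested) and 2 lower (0.0106%) DEGs, and against replicates 4 to 6 there were 16 higher (0.0850%) and 49 lower (0.260%). Both comparisons share the Mertk -/-V2 libraries, so they are not independent. Of the 11 DEGs above, 10 were DEGs against both sets, and Ifit1 was a DEG against replicates 4 to 6 only. The DEGs against replicates 1 to 3 alone were 3 interferon genes, Oas2 at 1.49, Oas1a at 2.11 and Gm12250 at 2.49, with adjusted p = 0.0401, 0.0308 and 0.043 by limma. Those against replicates 4 to 6 alone numbered 55. Of these 8 were higher, including Slfn4 at 3.01, Rsad2 at 2.13, Zbp1 at 2.01 and the macrophage receptors Clec4n at 2.37 and Msr1 at 2.15. The other 47 were lower. Among all 55 were 37 pseudogenes and 5 mitochondrial genes, and 24 of the 55 were also called between the B6 WT sets. Pseudogenes took 0.480 to 0.667% of reads in B6 WT replicates 4 to 6, beside 0.275 to 0.299% in replicates 1 to 3 and 0.274 to 0.341% in Mertk -/-V2. With only the 6 libraries compared in the fit, the DEGs against replicates 4 to 6 were 15.

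**Figure D4:**
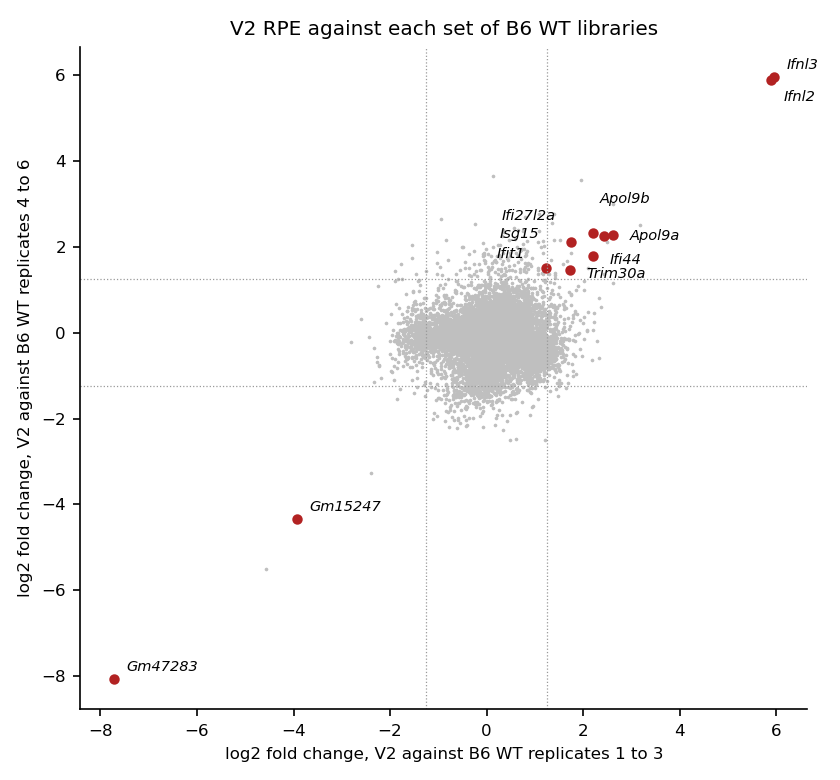
Log2 fold change of each gene tested in Mertk -/-V2 RPE against B6 WT replicates 1 to 3 (x axis) plotted with that against replicates 4 to 6 (y axis), which share the Mertk -/-V2 libraries. Red points are the 11 DEGs against all 6 B6 WT libraries, grey points the other genes, and dotted lines the fold threshold. All red points have the same sign on both axes.

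Lists separated into those that held over the sets and those that did not. Guanylate-binding proteins and GTPases had medians of 0.72 and 0.56 in the comparisons with replicates 1 to 3 and 4 to 6, macrophage markers 0.57 and 0.65, antiviral effectors 0.33 and 0.61, complement genes 0.57 and 0.36, and retinal stress genes 0.66 and 0.52. By contrast, rod photoreceptor markers had 1.19 and -0.37, cone markers 0.98 and -0.13, inner retinal neuron markers 1.14 and -0.45, and cell cycle genes -1.31 and 0.02. The summed rod level was 80047 to 196749 in B6 WT replicates 1 to 3, 205286 to 470710 in replicates 4 to 6 and 207900 to 326544 in Mertk -/-V2. Replicate 4, at 205286, was close to replicate 2, at 196749, and the high levels were those of replicates 5 and 6, at 470710 and 410183. Over all genes tested the median absolute log2 difference of replicate 4 was 0.192 to replicates 1 to 3 and 0.295 to replicates 5 and 6. By pseudogene reads it stood with replicates 5 and 6, at 0.667% beside 0.483 and 0.480%. Amounts of photoreceptor RNA therefore differed between the B6 WT sets more than between genotypes, and the part of this difference in other results was not tested beyond the fit with the rod level as a covariate, which gave 18 DEGs. Crystallins had medians of 0.64 and 1.73 and skeletal muscle markers -0.10 and 1.63, with summed levels that spanned 34838 to 278262 and 1885 to 19911 within B6 WT, and 0 DEGs, with 0 members at an unadjusted p under 0.05, in either list against all 6 libraries by limma.

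**Figure D5:**
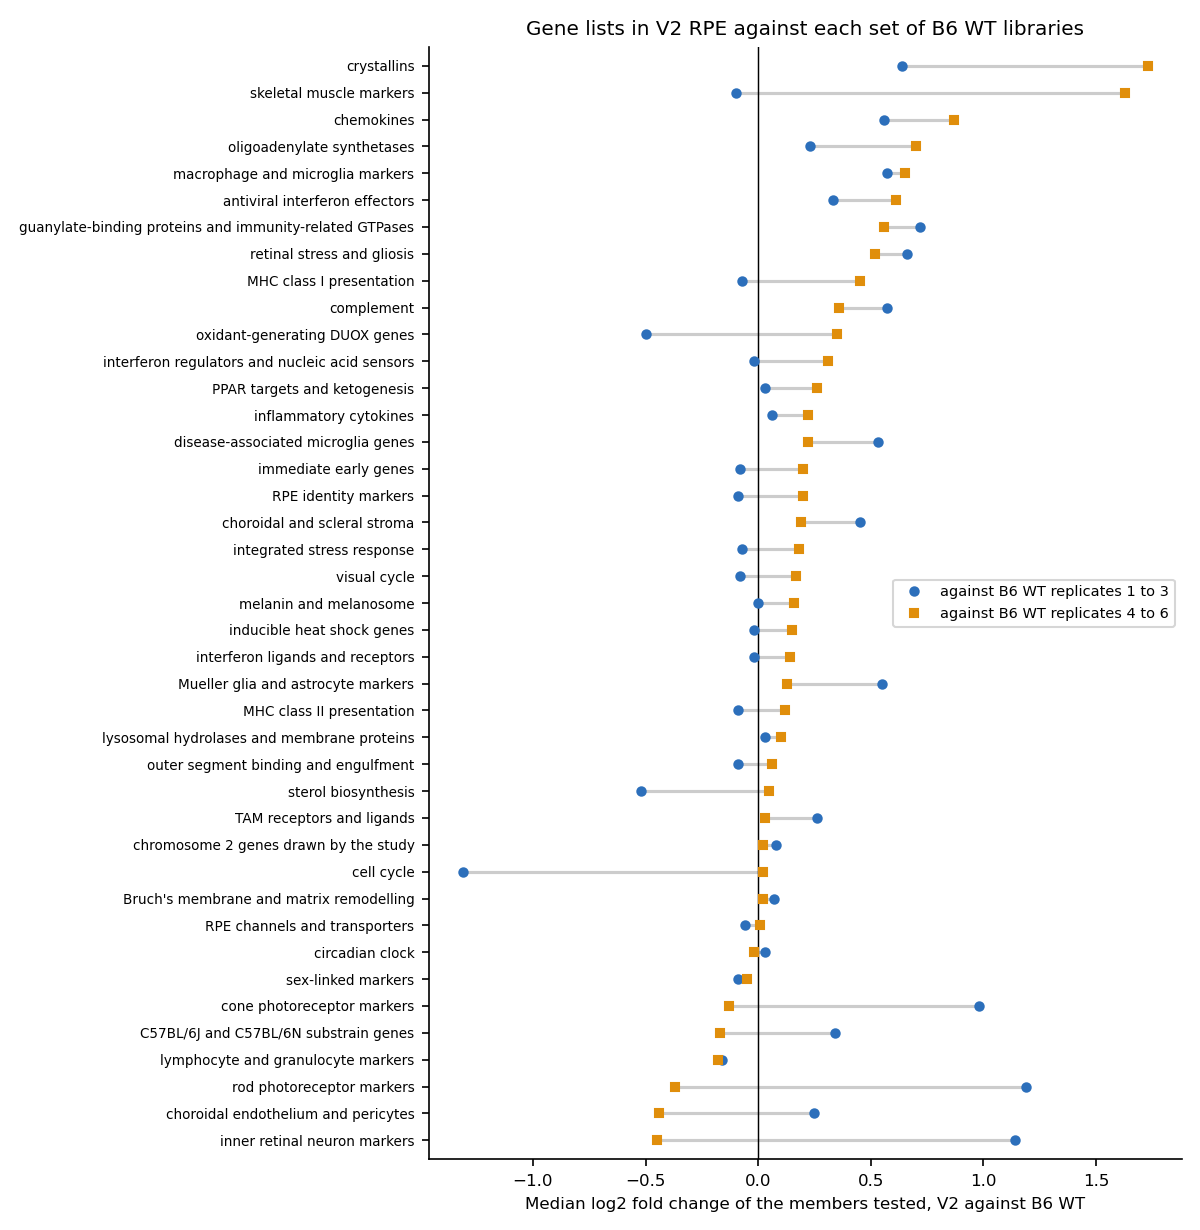
Median log2 fold change (x axis) of the tested members of each gene list in Mertk -/-V2 RPE, with B6 WT replicates 1 to 3 (blue circles) or replicates 4 to 6 (orange squares). Antiviral, GTPase and macrophage lists are above 0 for both sets, whereas rod, cone and inner retinal neuron markers lie on opposite sides of 0.

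The other Mertk lines were lower than Mertk -/-V2 for most of the DEGs, with overlap in Mertk -/-V1. Isg15 was 134 to 501 in Mertk -/-V1 and 122 to 128 in Mertk -/-V3, beside 398 to 668 in Mertk -/-V2. Apol9a was 24.3 to 89.1 and 20.1 to 32.4, and Ifi27l2a 55.9 to 109 and 29.0 to 48.6, so that Mertk -/-V2 stood above all libraries of both lines for these 2 genes. Ifit1 was as high in Mertk -/-V1, at 768 to 1794, and 520 to 815 in Mertk -/-V3. Trim30a was 282 to 409 in Mertk -/-V1 and 149 to 261 in Mertk -/-V3. Apol9b was 37.7 to 66.3 in Mertk -/-V1 and 24.5 to 43.6 in Mertk -/-V3, and Ifi44 was 101 to 226 and 64.7 to 107. Of the 9 higher DEGs, 4 were also higher DEGs of Mertk -/-V1 against B6 WT, where 0.101% of genes tested were, namely Apol9b at 1.49, Ifi44 at 1.42, Trim30a at 1.34 and Ifit1 at 1.52 on the log2 scale, with adjusted p from limma of 0.00504 or less. Both comparisons share the B6 WT libraries, so the overlap is not independent. Several list medians were alike in the other lines. Against B6 WT, guanylate-binding proteins and GTPases had 0.58 in Mertk -/-V2, 0.79 in Mertk -/-V1 and 0.65 in Mertk -/-V3. In the same order, macrophage markers had 0.61, 0.86 and 0.51, complement genes 0.38, 0.36 and 0.47, and retinal stress genes 0.51, 0.72 and 0.57. Antiviral effectors had 0.51, 0.47 and -0.12, with 5 higher DEGs in Mertk -/-V1. Tested directly, Mertk -/-V2 and Mertk -/-V3 RPE differed at 10 DEGs, 8 higher in Mertk -/-V2 (0.0425% of genes tested) and 2 lower (0.0106%). They included 5 of the 11 DEGs, namely Ifnl2, Ifnl3, Apol9a at 2.32, Ifi27l2a at 2.42 and Gm47283 at -6.82, along with Mertk. The substrain-dependent gene Wdfy1 was 2.15 lower, at 384, 460 and 351 against 1637 to 1880 in Mertk -/-V3 and 307 to 448 in B6 WT.

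Mertk -/-V2 BMDMs had 34 DEGs of 13420 genes tested against B6 WT BMDMs, 27 higher (0.201%) and 7 lower (0.0522%). Of the 11 RPE DEGs 7 were tested there, and 2, Gm47283 and Gm15247, were DEGs. Ifi44 and Ifit1 were 1.53 and 1.30 higher in Mertk -/-V2 BMDMs without passing (adjusted p = 0.205 and 0.0848, limma). Trim30a stood at 1182, 1269 and 1499 in B6 WT BMDMs and at 2091, 1514 and 1063 in Mertk -/-V2 BMDMs, which overlap. Its RPE difference exceeded that in BMDMs by 1.40 (adjusted p = 0.0467, limma over 12513 genes), as did that of Zkscan3 by 0.90 (adjusted p = 0.0171). For Isg15, Ifi27l2a, Ifi44 and Ifit1 the differences between tissues of 1.52, 1.93, 0.47 and 0.07 did not pass, with adjusted p from limma of 0.161 or more, so that a tissue difference is not shown for these genes. RPE and BMDM values were normalized in separate tables. By Xist and the Y-linked genes the RPE libraries read as male and the BMDM libraries as female, so tissue and sex cannot be told apart in these differences.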

How the data were processed

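Polyadenylated RNA of RPE and BMDMs had been sequenced as paired-end reads and aligned with STAR to GRCm38, per the study's methods and the submitters' processing notes, with the read counter, its strand setting and tool versions not given in the sources used here. The deposited tables hold 1 signal value per gene and library, which the authors made by dividing read counts by a DESeq2 size factor for each library. Divided by the value of 1 read in the library, all values were whole within 0.01 reads, and the depths in the text are sums of these recovered reads. Columns of samples outside the series numbered 0. Of 55573 genes 55480 matched GENCODE M21, which gave positions.

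Values were compared as log2(value + 1) with limma 3.58.1 in R 4.3.3 (empirical Bayes with a trend) over all 18 RPE libraries and 4 genotypes, for genes with a mean of at least 10, with Benjamini-Hochberg adjustment over 18832 genes. The sets of B6 WT libraries were compared in a model of 6 groups, and BMDMs in their own model of 12 libraries. The code was tested on simulated data. As the values are scaled counts, edgeR 4.0.16 and DESeq2 1.42.0 on recovered reads served as alternatives, along with a pseudocount of 5, no filter, only the libraries compared, quantile normalization, library weights, Y-linked or rod genes as a covariate, a replicate block, each B6 WT set and leaving out each library. The test of the difference between tissues, a limma model of 30 libraries, was chosen after seeing the data.

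The comparison and the 41 gene lists were chosen with earlier results of these data known. Genes were named where they were Mertk, Tyro3, Axl, a DEG against all B6 WT libraries or against both sets, a measured member of the interferon ligand, sex-linked or substrain lists, or among the 4 members of a list with the smallest unadjusted p, and the others named were chosen after their values were seen. P-values measure only the spread between these libraries, which may in part be technical. Sequences were compared with Python 3.11.15 and Biopython 1.88.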

Additional observations from a re-analysis of the deposited data

Results flagged for a closer look

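Dixon's test was applied for the named genes to 102 groups, each of the 6 B6 WT or the 6 Mertk -/-V1 RPE libraries. Of these groups 9 held a library that stood apart from the others, where chance gives about 1 in 20. Mertk -/-V2, Mertk -/-V3 and BMDM libraries were not looked at in this way. In Mertk -/-V1 RPE, replicate 1 had 23.3 normalized counts of Ifnl3 and 12.8 of Ifnl2, while the other 5 libraries had none of Ifnl3 and at most 0.948 of Ifnl2. Mertk -/-V1 replicate 2 had 226 of Ifi44 beside 101 to 143, and replicate 4 had 39.8 of Gm15247 beside 14.6 to 21.9. Within B6 WT RPE, replicate 5 was high for Ifi44, at 77.3 beside 33.0 to 48.1, and low for Irf9, at 860 beside 1035 to 1075, and for Irgm1, at 735 beside 882 to 967. B6 WT replicate 1 was high for the RNA sensor Dhx58, at 122 beside 83.2 to 90.7, and replicate 3 for the lectin receptor Clec7a, at 59.3 beside 31.5 to 38.7. Without B6 WT replicate 5 the log2 fold change of Ifi44 was 2.13, against 2.00 with it.

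The difference between Mertk -/-V2 and B6 WT was larger in RPE than in BMDMs for 2 of the genes named. For Trim30a it was 1.59 in RPE and 0.19 in BMDMs on the log2 scale, a gap of 1.40 (adjusted p = 0.0467, limma, and 0.0375, edgeR, over 12513 genes). For Zkscan3 it was 0.85 and -0.04, a gap of 0.90 (adjusted p = 0.0171, limma, and 0.0119, edgeR). Each fold change was taken within its own table, since the tables were normalized separately, and this test was chosen after seeing the data. The RPE libraries had reads of Y-linked genes and the BMDM libraries had almost none, so tissue and sex cannot be told apart here. All 3 Mertk -/-V2 RPE libraries were above the 6 B6 WT RPE libraries for both genes.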

How the results depend on the processing

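Against 11 DEGs between Mertk -/-V2 and B6 WT RPE, DESeq2 gave 22, DESeq2 fitted to both groups alone 36, library weights 127 (37 higher, 90 lower), no filter 17, the rod level as a covariate 18, and B6 WT replicates 4 to 6 alone 65. Leaving out a library gave 7 (without Mertk -/-V2 replicate 3) to 11. Against replicates 1 to 3 (13), DESeq2 gave 103 (20 higher, 83 lower) and leaving out a library 7 (without B6 WT replicate 1) to 10. Against replicates 4 to 6 (65), DESeq2 gave 189, a fit of the 6 libraries alone 15 (8 higher, 7 lower), and leaving out a library 19 (without Mertk -/-V2 replicate 3) to 56 (without B6 WT replicate 4, 36 higher and 20 lower). Against Mertk -/-V3 (10), DESeq2 gave 35, no filter 28 (12 higher, 16 lower) and leaving out a library 6 to 10. In BMDMs (34), a pseudocount of 5 gave 22 and leaving out a library 18 (without B6 WT replicate 2) to 59 (without Mertk -/-V2 replicate 3). The causes were not tested. With the number as a replicate block, the RPE comparisons gave 200 (26 higher, 174 lower) against B6 WT and 74 (37 of each) against Mertk -/-V3, and BMDMs 24. Deviations of equal numbers correlated at -0.113, -0.302 and 0.151 between Mertk -/-V2 and B6 WT RPE, and at -0.235, 0.165 and 0.176 between Mertk -/-V2 and Mertk -/-V3 RPE. Each deviation was taken from a group mean of few libraries. These values therefore cannot show whether libraries of equal number were handled together, which the labels do not state.

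Fold changes that had not passed changed sign in some settings. Ifnar2 was -0.0 with library weights, -0.09 with the replicate block and -0.06 against replicates 1 to 3, and Il10rb was -0.08 with the block. Against replicates 4 to 6, Ifngr2 was 0.03, Tyro3 0.02 and Wdfy1 -0.06. The gap between tissues for Ifit1 was -0.13 with edgeR. Under all 22 alternatives tried Apol9a, Apol9b, Trim30a, Gm47283 and Gm15247 remained DEGs. At these depths 3 reads equal 2.8 to 5.55 normalized counts in B6 WT RPE and 2.42 to 2.58 in Mertk -/-V2 RPE, the level that a value of 0 allows.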

Other observations

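A few epithelial genes had lower values in Mertk -/-V2 RPE without passing after adjustment, and they were chosen after their values were seen. Duox2, which makes hydrogen peroxide, stood at 140, 99.6, 121, 107, 40.6 and 44 normalized counts in B6 WT and at 33, 27.2 and 37 in Mertk -/-V2 (log2 fold change -1.34 ± 0.44 SE, adjusted p = 0.713, limma). All 3 values were below B6 WT, where replicates 5 and 6 were low as well. The glucose transporter gene Slc5a1 ranged from 923 to 4128 in B6 WT against 798, 587 and 1070, and the cytokine gene Il1f9 from 159 to 787 against 150, 61.1 and 163. For both the ranges overlapped, and the lowest B6 WT values were again those of replicates 5 and 6. Cell cycle genes gave 0 DEGs of 20 by limma, with 1 at an unadjusted p under 0.05, 1 positive fold change and a median of -0.56, and their summed level was 5170 to 7645 in Mertk -/-V2, 11024 to 16573 in B6 WT replicates 1 to 3 and 4042 to 9184 in replicates 4 to 6. Among all 18832 genes tested 10208 fold changes were positive.

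Stromal genes had positive fold changes without a DEG. All 12 choroidal and scleral stroma genes tested were positive (median 0.34, beside 0.02 for all genes), with 0 DEGs and 2 at an unadjusted p under 0.05 by limma, among the 12 the matrix gene Lum at 632, 540 and 945 against 335 to 497. Over all genes tested 10208 of 18832 were positive. Vim, an intermediate filament of glia and mesenchyme, stood at 7834, 7408 and 7681 against 4584 to 6639. Both genes were above every B6 WT library, and neither passed (adjusted p = 0.71 and 0.679, limma).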
